A study of Mus musculus with 2 samples.

Results

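A group of 7 genes of cholesterol synthesis and its control was examined in sorted progenitors of innate lymphoid cells (ILCs), out of 19505 genes named on the array. They were chosen by symbol, as Hmgcs1, Idi1, Fdft1, Sqle and Lss, which encode enzymes of the pathway, and Insig1 and Srebf2, which encode its regulators. Each of the 7 had 1 probe set, and all 7 passed the level filter described below. The working name of the group includes uptake, but none of the 7 encodes a lipoprotein receptor. Uptake is therefore described from a further list of genes.

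One array held RNA from ILC progenitors of Yeats4 knockout mice, and the other held RNA from progenitors of wild-type littermates. Cells of both genotypes were sorted as lineage-negative, CD127-positive and α4β7 integrin-positive, with intermediate c-Kit and Sca-1. The comparison addresses which transcripts differ when Yeats4, a reader of acetylated histones found in chromatin-modifying complexes, is deleted. The labels give neither the way the deletion was made nor the age of the mice, nor how many mice went into each RNA sample. Since each genotype was measured once, no replicate error or test exists, and every difference below describes these arrays only.

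Cholesterol is made from acetyl-CoA through mevalonate, farnesyl pyrophosphate, squalene and lanosterol. When membrane sterol is low, the protein made by Srebf2 (SREBP-2) is carried by its escort Scap from the endoplasmic reticulum to the Golgi, cut by proteases and released as a transcription factor that switches on the genes of synthesis and uptake. When sterol is high, Insig proteins hold the complex back, and Insig1 is itself a target of the pathway. Dividing blood progenitors need sterol for new membranes, and the same pathway supplies isoprenoids for protein prenylation.

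SREBP proteins bind sterol regulatory elements, usually near sites for the cofactors NF-Y and Sp1. The promoters of 3 of the 7 genes are shown, because they bear on whether the genes share such letters. Hmgcs1 and Insig1 read higher on the knockout array and Srebf2 slightly lower. Each sequence is from RefSeq (GRCm38.p6), runs 5′ to 3′ on the strand of the gene and spans 250 bases before to 50 bases after its start. The positions are chr13:119690101-119690400 for Hmgcs1, chr5:28071162-28071461 for Insig1 and chr15:82147019-82147318 for Srebf2, all on the plus strand. Capitals mark matches on either strand to a short form of the sterol regulatory element (CACNCCAC), to the NF-Y box (CCAAT) and to the GC box bound by Sp1 (GGGCGG).
Hmgcs1: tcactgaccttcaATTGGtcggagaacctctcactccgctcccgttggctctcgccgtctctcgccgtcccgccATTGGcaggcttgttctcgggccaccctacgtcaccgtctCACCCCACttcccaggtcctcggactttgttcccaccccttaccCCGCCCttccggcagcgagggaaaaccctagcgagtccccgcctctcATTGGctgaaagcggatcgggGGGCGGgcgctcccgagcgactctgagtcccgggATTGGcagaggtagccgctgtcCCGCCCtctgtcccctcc
Insig1: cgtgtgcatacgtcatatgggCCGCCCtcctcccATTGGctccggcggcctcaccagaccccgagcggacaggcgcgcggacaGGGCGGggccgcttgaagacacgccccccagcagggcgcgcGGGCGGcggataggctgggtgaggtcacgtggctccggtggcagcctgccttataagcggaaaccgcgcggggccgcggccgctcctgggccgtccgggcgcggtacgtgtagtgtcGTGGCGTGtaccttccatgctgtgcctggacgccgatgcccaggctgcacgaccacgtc
Srebf2: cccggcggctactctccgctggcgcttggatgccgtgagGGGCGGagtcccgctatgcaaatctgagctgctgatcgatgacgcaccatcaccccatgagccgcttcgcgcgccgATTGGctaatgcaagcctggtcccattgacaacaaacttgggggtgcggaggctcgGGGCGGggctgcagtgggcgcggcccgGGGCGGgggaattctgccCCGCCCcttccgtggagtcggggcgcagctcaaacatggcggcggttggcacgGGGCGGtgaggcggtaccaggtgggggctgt

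The sterol element letters occurred 136 bases before the start of Hmgcs1, as CACCCCAC, and 9 bases before the start of Insig1, as CACGCCAC on the opposite strand. They were not found in the window of Srebf2. Promoters were available for 5 of the 7 genes, and the windows of Idi1 and Lss did not hold the sterol element letters either. Unlike Srebf2, Idi1 (0.41) and Lss (0.20) read higher on the knockout array, though below the negative controls on both arrays. The letters thus did not sort these 5 genes by direction. All 5 windows held at least 1 NF-Y box and at least 1 GC box, with no overlap between matches. The boxes were not particular to the 7 genes. Of 13 other cholesterol synthesis enzymes with a promoter, 12 held an NF-Y box, 12 a GC box and 1 the sterol element letters, counting any window of a gene. Over all 32851 promoters of this length, 6.24% held the sterol element letters, 37.4% the NF-Y box and 35.7% the GC box. A match is a description of the sequence and does not show binding, and a window without a match says only that these letters are absent from it.

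Values are log2 expression values as the authors normalized them by RMA (robust multi-array average). A gene was compared when its mean over both arrays reached 2.88, the median of all probe sets, which 10881 genes did. Differences are the knockout array minus the wild-type array. Each was set beside those of the 500 genes nearest in mean level, whose spread is their scaled median absolute deviation. The 95th percentile of the 5222 negative control probe sets was 4.73 on the knockout array and 4.80 on the wild-type array, and genes below it on both arrays are described as near background. Of the 10881 genes compared, 4620 were near background, and shares over all genes include them. Differences varied with level over all genes, with a median of 0.08 over all levels, -0.04 at mean levels between 2.88 and 4, and 0.17 between 6 and 7. The Yeats4 probe set read 5.90 on the knockout array and 5.96 on the wild-type array. The sources used here do not say whether its probes fall in the deleted part, so it does not check the label.

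Of the 7 genes, 6 read somewhat higher on the knockout array and Srebf2 read slightly lower, and none reached a 1.5-fold difference in either direction. Their median difference was 0.27 on the log2 scale (range -0.09 to 0.41), against 0.08 for all genes past the filter. Among all 10881 genes, 58.2% read higher on the knockout array by any amount and 41.0% read lower. A value at least 1.5-fold higher was found for 9.16% of genes and one at least 1.5-fold lower for 5.16%. At 2-fold the shares were 1.56% higher and 0.781% lower, and 3.15% lay 2 or more local spreads above the genes of like level and 2.38% as far below. None of the 7 met any of these limits. The 6 higher genes lay above 283 to 416 of the 500 genes of like level, and the largest departure from the median of those genes was 1.08 local spreads, that of Idi1, which was near background on both arrays. Idi1, Sqle and Lss were all near background, so their differences and ranks are given as measured and are not resolved from the scatter of negative controls. In such bulk RNA, fewer cells of a type and less RNA per cell cannot be told apart.

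**Figure D1:**
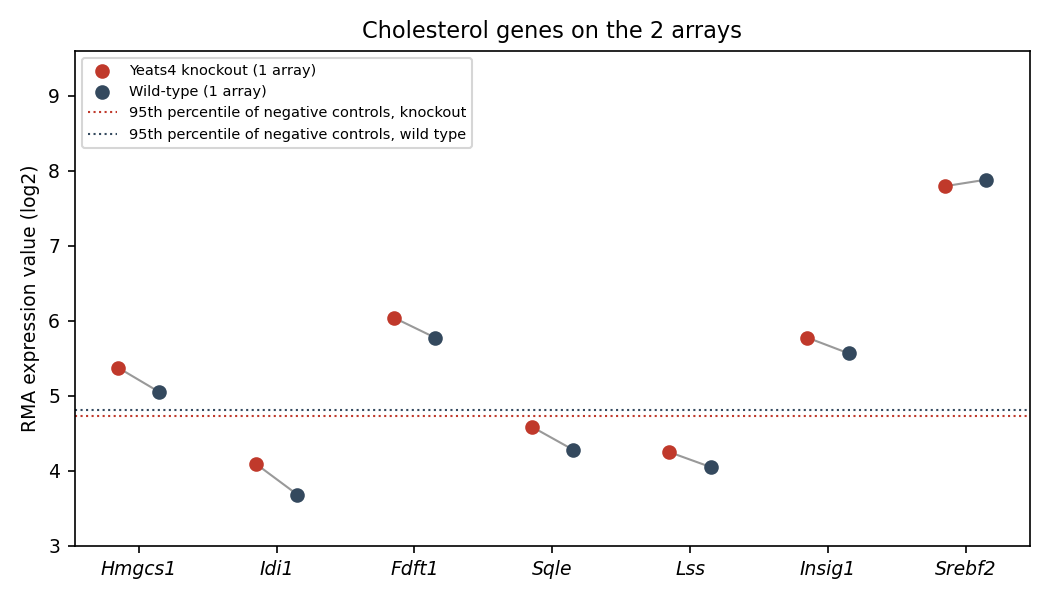
RMA expression values (log2) of the 7 genes on the Yeats4 knockout array (left point of each pair) and the wild-type array (right point), with 1 array per genotype and no error bars. Dotted lines mark the 95th percentile of negative controls (4.73 on the knockout array, 4.80 on the wild-type array). Idi1, Sqle and Lss lie below both lines, and the points of each pair differ by 0.41 or less.

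Hmgcs1 encodes the cytosolic HMG-CoA synthase, an early enzyme of the mevalonate pathway. It read 5.37 on the knockout array and 5.05 on the wild-type array, a difference of 0.33, or 1.25-fold. That was higher than 359 of the 500 genes of like level, whose median was 0.11 with a spread of 0.34. The difference was thus smaller than the scatter of genes at that level.

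Idi1 encodes the isomerase that interconverts the pathway's first isoprenoid units. It read 4.09 on the knockout array and 3.68 on the wild-type array, which is the largest difference of the group at 0.41. Both readings were under the negative control level, so no fold is given. It exceeded 416 of its 500 neighbours, whose median was -0.07 with a spread of 0.44.

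Fdft1 encodes squalene synthase, which commits farnesyl pyrophosphate to sterols. It read 6.04 on the knockout array and 5.77 on the wild-type array, a difference of 0.27, or 1.20-fold. Genes of that level had a median of 0.17, so Fdft1 stood only 0.30 local spreads above them.

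Sqle encodes squalene epoxidase, the oxygen-dependent step that is rate-limiting in the later pathway. It read 4.59 on the knockout array and 4.28 on the wild-type array, a difference of 0.31, with both readings near background. Lss encodes lanosterol synthase, which closes the sterol rings of the product of Sqle. It read 4.25 on the knockout array and 4.05 on the wild-type array, a difference of 0.20, and was near background too. Sqle exceeded 357 and Lss 326 of the 500 genes nearest in level.

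Insig1 encodes the sterol-sensing anchor that retains SREBP in the endoplasmic reticulum. It read 5.77 on the knockout array and 5.57 on the wild-type array, a difference of 0.21, or 1.16-fold. It lay in the middle of the genes of like level, above 283 of 500.

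Srebf2 encodes SREBP-2, the transcription factor of the pathway. It read 7.79 on the knockout array and 7.88 on the wild-type array, a difference of -0.09, or 1.06-fold lower. Genes of that level had a median of 0.13 with a spread of 0.22, and 83 of 500 lay below Srebf2. Srebf2 was the 1 gene of the 7 to fall below the genes of like level. Its mRNA level does not report how much of the protein is cut and active.

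**Figure D2:**
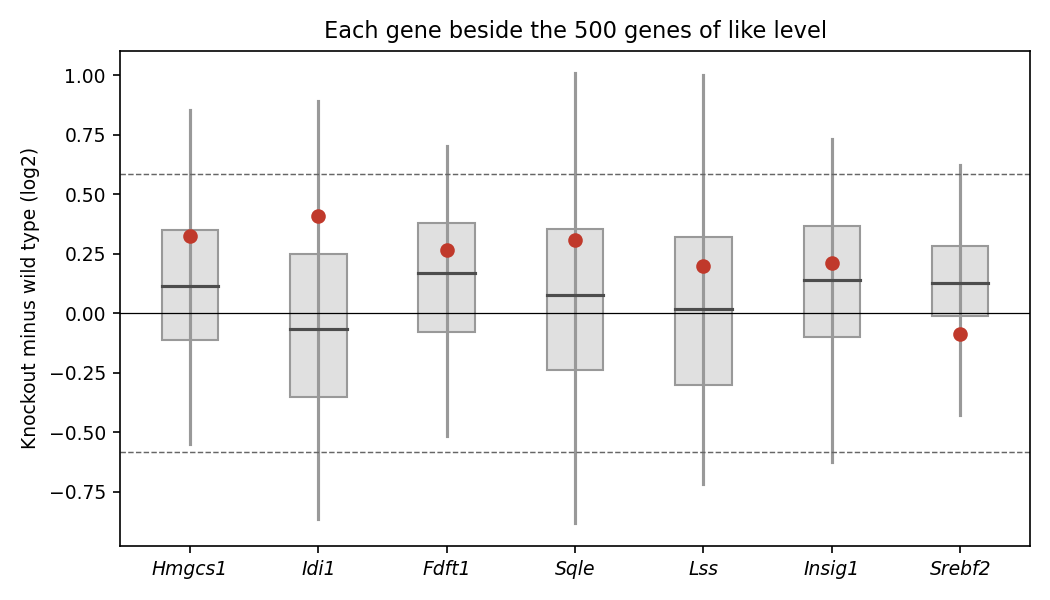
Differences of the 7 genes (points, knockout minus wild type, log2) beside the 500 genes nearest in mean level, drawn as their median (bar), quartiles (box) and central 95% (line). Dashed lines mark a 1.5-fold difference. All 7 points lie inside the lines of their neighbours, and only Idi1 and Srebf2 lie outside the box.

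The remaining enzymes of the pathway differed by amounts of the same order. Of the 12 measured enzymes that are not among the 7, 10 read higher on the knockout array and 2 lower, with a median of 0.18 (range -0.51 to 0.65). Of all 17 measured enzymes, 15 read higher and 2 lower, with a median of 0.27 (order-statistic interval 0.16 to 0.33, 95%, over genes and not over mice). The interval treats genes on the same arrays as independent, so it is no test of a shift. The same holds for the intervals of the lists below. Counts of higher genes, here and in those lists, stand beside the 58.2% of all genes that read higher. Of the 17 enzymes, 15 lay above the median of genes of like level. Of the 17, 7 were near background on both arrays, and none stood 2 local spreads from the genes of like level. The other 4 listed enzymes were not analysed here.

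Only Nsdhl, which encodes a dehydrogenase of the C4 demethylation of sterols, was at least 1.5-fold different. It read 6.30 on the knockout array and 5.66 on the wild-type array, a difference of 0.65. It exceeded 473 of 500 genes of like level, and under median centring the difference was 0.56, which is less than 1.5-fold. Fdps, the farnesyl pyrophosphate synthase, differed by 0.46 (5.99 on the knockout array, 5.53 on the wild-type array). The later enzymes Sc5d (0.38), Msmo1 (0.32), Cyp51 (0.30), Hsd17b7 (0.19), Dhcr7 (0.18), Lbr (0.16) and Ebp (0.15) read higher by less. Msmo1 and Hsd17b7 were near background.

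In the mevalonate steps the directions were mixed. Mvd, the decarboxylase that makes isopentenyl pyrophosphate, read 4.65 on the knockout array and 5.16 on the wild-type array, a difference of -0.51. Its knockout reading was below that of the negative controls, and 25 of 500 neighbours lay below it. The kinases Mvk (-0.14) and Pmvk (0.12) were near background, so their differences are given as measured and are not resolved. As measured, Mvd lay on the opposite side from Idi1, which uses its product. Idi1 was near background, so this contrast is not resolved.

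**Figure D3:**
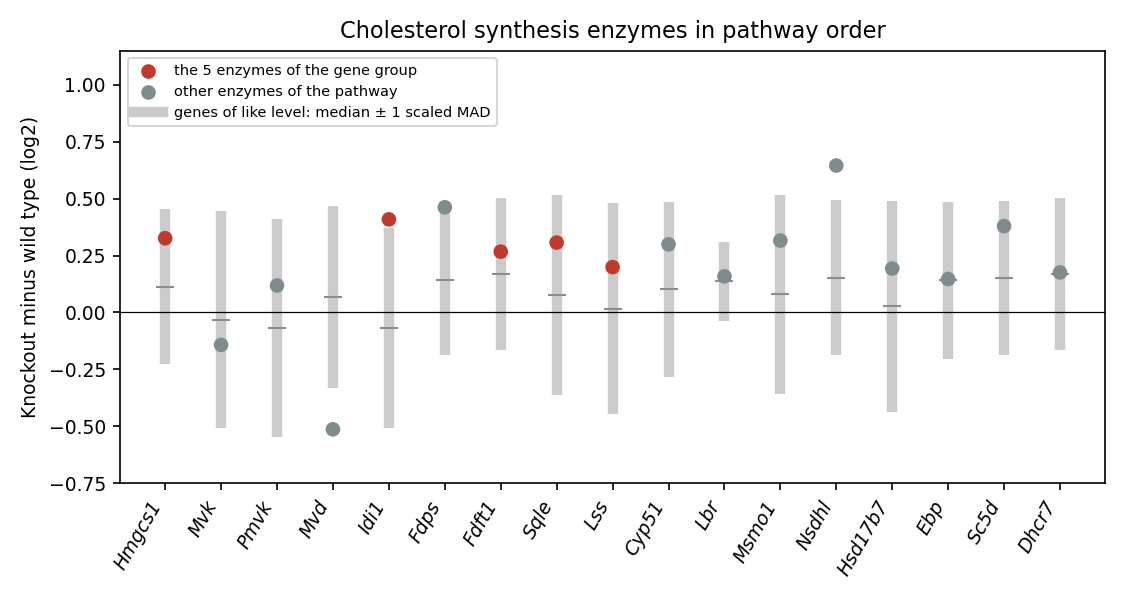
Differences (knockout minus wild type, log2) of the 17 measured cholesterol synthesis enzymes from the first step on the left to the last on the right, with the 5 enzymes among the 7 genes in red. Grey bars span the median of the 500 genes of like level plus and minus 1 local spread. Mvd lies below its bar at -0.51, Idi1 (0.41, near background) and Nsdhl (0.65) lie above theirs, and the others lie inside.

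The machinery that controls SREBP also showed no common direction. Of 13 regulators past the filter, 9 read higher and 4 lower, with a median of 0.21 (interval -0.19 to 0.45). Against genes of like level, 8 lay above the median and 5 below. Scap differed by 0.22 and Mbtps1, the first of the processing proteases, by 0.04, which turned to -0.10 after loess correction on level. The only regulators at least 1.5-fold different were Nfyb, a subunit of NF-Y, at 0.66 (6.21 on the knockout array, 5.54 on the wild-type array), and Ufd1, which acts in degradation from the endoplasmic reticulum, at 0.59. The wild-type reading of Ufd1 was below that of the negative controls, and both genes fell short of 1.5-fold after loess correction. The other NF-Y subunits Nfya and Nfyc were at 0.45 and 0.42. Creb1, a transcription factor, was at 0.37 and Rxra, a nuclear receptor partner, at 0.17. The wild-type readings of both were below the negative controls.

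Sp1, the factor that binds the GC boxes marked above, read 8.12 on the knockout array and 8.46 on the wild-type array. The difference of -0.34 lay 2.38 local spreads below genes of like level, with 11 of 500 lower. Over all genes, 2.38% lay 2 or more local spreads below. Rnf145 (-0.26) and Rnf139 (-0.19), ubiquitin ligases of the endoplasmic reticulum, also read lower. Insig2 and Nr1h3 were under the level filter, and 4 other listed regulators were not analysed here.

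Genes of cholesterol uptake and transport inside the cell had a median of 0.39 (interval -0.23 to 0.48), with 8 of the 12 past the filter higher and 4 lower. The median was 0.12 when readings below the negative controls were raised to their level. Another 3 listed genes were not analysed here. Mylip, a ubiquitin ligase that limits lipoprotein uptake, read 5.21 on the knockout array and 5.77 on the wild-type array, a difference of -0.56, and 15 of 500 genes of like level were lower. The lysosomal cholesterol exporters did not go one way. Npc1 read 4.47 on the knockout array and 4.99 on the wild-type array (-0.52), with the knockout reading below the negative controls, whereas Npc2 read 6.39 on the knockout array and 5.92 on the wild-type array (0.47). Lipa, the lysosomal lipase that frees cholesterol from its esters, was at 0.48. Stard4, a carrier of sterol between membranes, had the only 1.5-fold difference at 0.66, with both readings near background.

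Among 6 genes of efflux and esterification past the filter, 4 read higher and 2 lower, with a median of 0.23, or 0.00 with raised readings, and none at 1.5-fold. Abca1 was at 0.48 and Abcg1, the other sterol exporter, at -0.30, and both genes were near background. Apoe, the lipoprotein of macrophages and other cells, read 8.20 on the knockout array and 7.81 on the wild-type array (0.39). Genes of the isoprenoid branch had a median of 0.24, or 0.00 with raised readings, with 7 of 9 higher. Nus1, of dolichol synthesis, and Coq2, of ubiquinone synthesis, were each at 0.59, and the wild-type reading of Coq2 was below that of the negative controls. Fntb, a subunit of protein farnesyltransferase, was at 0.47, near background.

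Genes of fatty acid synthesis that SREBP factors also drive did not share a direction. Of 10 past the filter, 5 read higher and 5 lower, with a median of 0.05. Elovl5, an elongase of polyunsaturated fatty acids, read 7.47 on the knockout array and 6.72 on the wild-type array, a difference of 0.75 that exceeded 493 of 500 genes of like level. Fads1, a desaturase, was at 0.56, with its wild-type reading below the negative controls. Gpam, which starts glycerolipid synthesis, was at -0.55, with its knockout reading below them. Fasn, the fatty acid synthase, was at 0.11 as deposited and -0.04 after loess correction.

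The median differences of T cell, B cell, eosinophil and macrophage markers were larger in size than that of the 7 cholesterol genes. The medians of erythroid markers (-0.30) and mitotic genes (0.33) were slightly larger in size than that of the 7 genes (0.27). The median of neutrophil markers (-0.21) was smaller. Macrophage genes read higher, at least 1.5-fold for 8 of the 9 past the filter, with signals summed on the linear scale of 639 on the knockout array and 404 on the wild-type array. Its markers Cd5l, Adgre1 and Mertk were near background on both arrays. T cell genes read lower, at least 1.5-fold for 10 of 11 (summed signal 286 on the knockout array, 796 on the wild-type array). When readings below the negative controls were raised to their level, 6 T cell genes were 1.5-fold lower and 5 macrophage genes 1.5-fold higher. B cell genes were lower by 1.5-fold for 6 of 8 (748 on the knockout array, 1364 on the wild-type array), as were eosinophil genes for 5 of 7 (702 on the knockout array, 2002 on the wild-type array). The other eosinophil markers went the opposite way, Ccr3 by 0.96 and Siglecf by 0.14, with the wild-type reading of Ccr3 and both readings of Siglecf below the negative controls. Neutrophil genes were mixed, with 4 higher and 7 lower, a median of -0.21 and a range of -0.55 to 0.72. Their summed signal was the largest of any list on both arrays, at 12648 on the knockout array and 11284 on the wild-type array. The 4 higher genes were Elane, Mpo, Prtn3 and Ctsg, and 1 neutrophil gene was at least 1.5-fold higher. Of the neutrophil genes, 2 lay 2 or more local spreads above genes of like level and 5 as far below. The 4 erythroid genes past the filter had a median of -0.30 (range -0.44 to 0.42) with none at 1.5-fold. Mitotic genes read higher for 16 of 17, with a median of 0.33 and a summed signal of 2299 on the knockout array and 1923 on the wild-type array. Over all genes 58.2% read higher, and 14 of the 17 mitotic genes lay above the median of genes of like level. For the 7 cholesterol genes the summed signal was 444 on the knockout array and 420 on the wild-type array. Srebf2, which read slightly lower, had the highest level of the 7 and weighs most in both sums. The part of these other lists in the differences of the cholesterol genes was not tested. Of the genes of the sort gate and of ILC progenitors, Il7r, Kit, Itga4, Itgb7, Id2, Tox and Nfil3 exceeded the negative controls on both arrays, and Zbtb16 did so on the wild-type array alone. Of these 8 genes, Id2 (1.23) and Kit (0.65) read at least 1.5-fold higher, and Nfil3 (-0.93) and Il7r (-0.70) at least 1.5-fold lower. The summed signal of the 8 was 1545 on the knockout array and 1572 on the wild-type array, far below that of the neutrophil genes.

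**Figure D4:**
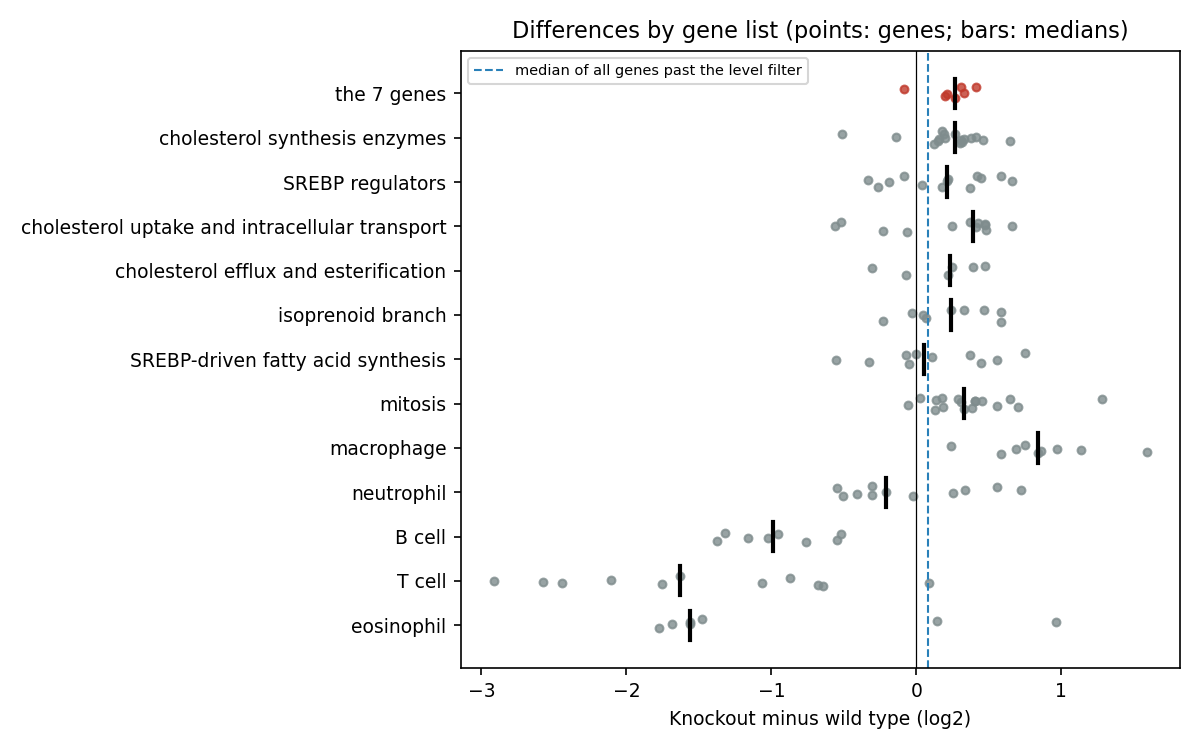
Differences (knockout minus wild type, log2) of the genes past the level filter in each list, 1 point per gene, with the list median as a black bar and the median of all genes (0.08) as a dashed line. The 7 cholesterol genes, in red, lie between -0.09 and 0.41, while T cell, B cell and eosinophil genes reach far lower and macrophage genes higher.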

How the data were processed

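RNA of sorted ILC progenitors, extracted with Trizol per the labels' protocols, was measured on 2 Affymetrix arrays, 1 per genotype. The deposited log2 values were made with Affymetrix Power Tools and RMA, per the submitters' processing notes; no versions or genome build are stated there. Per the series' design text the platform was Mouse Gene 2.0, whereas the probe set identifiers belong to a different Affymetrix mouse platform. This conflict is not settled, and every gene name here depends on the annotation of the second platform. RMA brings the arrays' distributions together, so the values cannot show a shift in the total RNA of a cell.

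Of 29129 probe sets, 19572 carried 1 gene symbol in the platform annotation and gave 19505 genes, with the probe set of highest mean used where a gene had several. No further centring was applied. The local spread is the scaled median absolute deviation of the 500 nearest genes, and the procedure was tested on simulated data. The simulated shifts were far larger than any difference of the cholesterol genes, so that test does not bear on differences of their size. Linear signals are 2 raised to the log2 value, summed over all measured genes of a list. The number of arrays limits the precision.

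The 7 genes and the other lists were chosen with earlier results of these data known. Named are all 7 genes, the measured enzymes, the SREBP regulators past the filter, and in each other pathway list genes at least 1.5-fold different and the 3 with the largest difference; Fasn, Npc2 and Lipa are further examples picked with their values known. The rule also covered marker lists, which are given here mainly as counts, medians and summed signals. Alternatives were 2 other level filters, centring, loess correction (span 0.3), quantile normalization, values raised to the negative control level, mean of probe sets, other thresholds, and 200 or 1000 nearest genes. Python 3.11.15, numpy 2.4.6, pandas 2.3.3, scipy 1.17.1, statsmodels 0.14.6 and matplotlib 3.10.9 were used.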

Additional observations from a re-analysis of the deposited data

How the results depend on the processing

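With 1 array per genotype no alternative can supply replicate error, and every value rests on the authors' RMA values. No paired analysis was possible because each genotype has 1 array and the labels give no replicate numbers. Under centring, loess correction and quantile normalization all 7 cholesterol genes kept their direction, and none reached 1.5-fold in any alternative run. Each of the 7 had 1 probe set, so the mean of probe sets could not change their differences. The level filters could not change them either. The loess correction, which removes the trend with level, left Insig1 at 0.07, Fdft1 at 0.12, Hmgcs1 at 0.21 and Srebf2 at -0.23. When readings below the negative controls were raised to their level, the near-background genes Idi1, Sqle and Lss had a difference of 0.00, as did the median of the 7. The filter at the 75th percentile (4.84) removed these 3 genes and left a median of 0.24. The widths of 200 and 1000 nearest genes left Idi1 at 1.22 and 0.96 local spreads and Hmgcs1 at 0.37 and 0.59.

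Counts of 1.5-fold differences in the wider lists were less stable. With raised values the median was 0.15 for all cholesterol synthesis enzymes, 0.12 for uptake and transport, and 0.00 for efflux and for the isoprenoid branch. The T cell median was -0.65, against -1.63. The 1 enzyme at least 1.5-fold higher became 0 at 2-fold, beyond 2 local spreads, and with centring, loess or quantile normalization. With these last 3, 1 enzyme, Mvd, was 1.5-fold lower, against 0. The 2 higher SREBP regulators became 0 under the same 5 alternatives and 1 with raised values, and 1 regulator was lower beyond 2 local spreads. The 1 higher uptake and transport gene became 0 at 2-fold, beyond 2 local spreads, with centring, with raised values and with the 75th percentile filter, and 2, Mylip and Npc1, were lower with centring, loess or quantile normalization, against 0. The 2 higher isoprenoid genes became 0 at 2-fold, beyond 2 local spreads and with the 3 scalings, and 1 with raised values or the stricter filter. For fatty acid synthesis the 1 higher gene became 0 at 2-fold, and 1, Gpam, was lower with the 3 scalings, against 0. The cause was not tested beyond the alternatives' own construction.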
